A study of Mus musculus with 6 samples.

Results

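The hypoxia-induced genes that lie outside the glycolytic pathway were followed in mouse tumor organoids treated with Folfiri. They are 39 genes with known induction by low oxygen, chosen by name for their roles in blood vessel growth, mitochondria and mitophagy, collagen and disulfide formation, histone demethylation, transcription, growth restraint, lipid stores and glycogen. The choice was made with earlier results of these data known. All 39 were among the 24190 genes with counts, and 37 passed the filter on low counts, which left 14692 genes for testing.

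The organoids were MTO54, a single line of the AKP genotype, which control and treated cultures share. Dissociated cells were seeded in basement membrane extract, and 2 days later received either Folfiri for 2 days or control medium for the same time, with 3 cultures per group. Folfiri here was fluorouracil (5FU), an inhibitor of thymidylate synthesis, at 50 μg/μl (the unit as the study's methods write it), with SN38, the active form of the topoisomerase I inhibitor irinotecan, at 100 nM. A figure legend of the study gives the treatment as 4 days, whereas the methods and labels give 2. The study describes the 3 cultures of a condition as biological replicates, and all come from the same line, so that p-values measure the spread between cultures of MTO54.

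Hypoxia-inducible factors (HIFs) pair an oxygen-regulated alpha subunit with ARNT and bind short DNA motifs with the core ACGTG or GCGTG in the promoters and enhancers of their targets. With oxygen present, prolyl hydroxylases (EGLN) mark the alpha subunit for VHL, which has it degraded, and in low oxygen it escapes. Target genes outside glycolysis call in vessels, clear mitochondria, modify collagen, restrain growth and store fuel, and many also respond to other signals. Oxygen was not measured in these cultures, and the values below are of RNA.

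Total counts were 22103591 to 30098210 per culture. Control 1 and, to a lesser degree, Folfiri 3 stood apart from their groups. The chi-square per degree of freedom between replicates was 24.9 and 23.3 for control 1 against the other controls and 3.95 between those, and 13.3 and 12.8 for Folfiri 3 against the other Folfiri cultures and 3.75 between those. Levels are given as CPM, counts scaled to a common library size after TMM, a correction for the makeup of each library. The 9 intestinal epithelial markers were present in every culture apart from a low Krt20, and summed to 5977 to 6947 CPM in control and 4818 to 4992 CPM after Folfiri. Of the 8 fibroblast markers, 6 were below 1 CPM in every culture or not listed, and the sum was 1.08 to 1.44 CPM in control and 2.06 to 2.45 CPM after Folfiri. Of the 8 endothelial markers, 6 were below 1 CPM or not listed, Kdr was at 0 in all controls, and the sum of 79.8 to 133 CPM in control and 69.2 to 79.5 CPM after Folfiri was mostly Cdh5. The 10 immune markers summed to 21.6 to 26.3 CPM in control and 22.3 to 23.4 CPM after Folfiri, mostly Cd68.

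Most of the hypoxia genes were lower after Folfiri. The 39 genes together made up 8532, 10379 and 10608 CPM in controls 1 to 3 and 1674, 1551 and 1550 CPM in Folfiri cultures 1 to 3, that is 9840 ± 1138 (SD, n = 3) against 1592 ± 71.4 CPM, 6.18-fold lower. Every Folfiri culture lay far below every control. The 6 most abundant genes held 64.1% of the control sum. In bulk cultures, fewer cells of a type and less RNA per cell cannot be told apart.

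Tested one by one with edgeR's quasi-likelihood test, at a Benjamini-Hochberg adjusted p under 0.05 over all genes tested, 31 of the 37 were lower, 3 were higher (Angptl4, Loxl2 and Cited2) and 3 were not called (Stc2, Wsb1 and Narf). Folfiri changed much of the transcriptome, so that 38.8% of all tested genes were called lower and 40.3% higher. At a change of at least 2-fold, 30 of the 37 were lower and 1 was higher, and the share of all tested genes so called was 16.8% lower and 19.5% higher. The median log2 fold change of the 37 genes was -1.94, against 0.02 over all genes tested. The groups of 3 did not overlap in 34 of the 37 genes, and in 81.4% of all genes. All 37 were above the filter's level of 0.354 CPM in each of the 6 cultures, so that none entered the test through a single group.

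**Figure D1:**
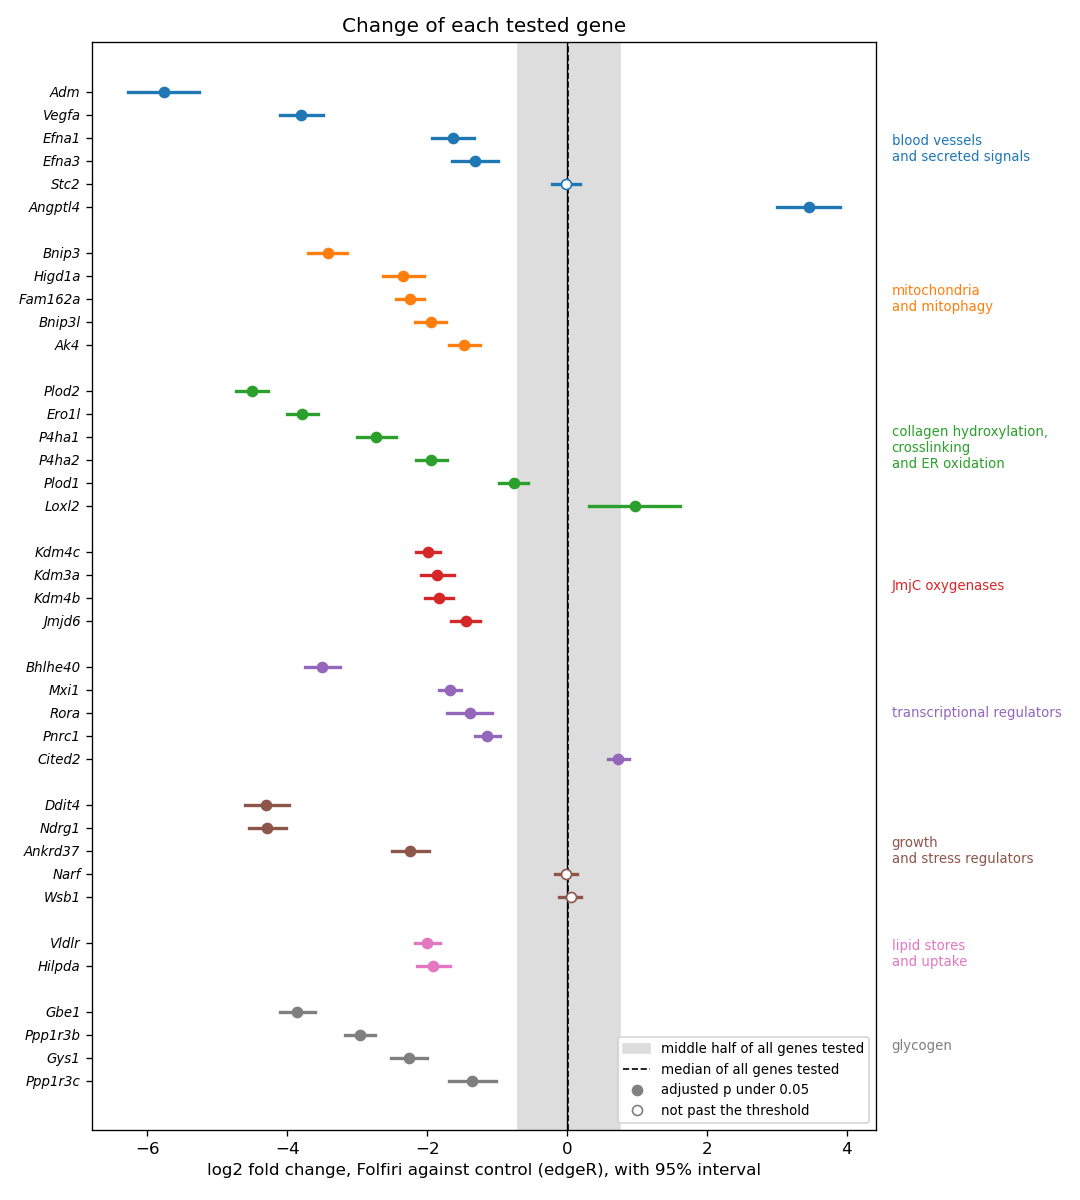
Log2 fold change (Folfiri over control) of the 37 tested hypoxia genes by role, with 95% confidence intervals from edgeR; the gray band is the interquartile range over all genes tested. The 31 lower genes span -5.77 to -0.76, and Angptl4 at 3.46 is the 1 gene with a gain of at least 2-fold.

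Control 1 was the lowest control in 23 of the 31 lower genes, compared with 60.2% of all 5697 genes called lower. Its median log2 ratio to the mean of controls 2 and 3 was -0.26 over the 31, from -0.78 to 0.35, and -0.12 over all genes called lower. Without control 1, the same test called 31 genes lower, 30 of them at least 2-fold, and 3 higher, with a median of -1.99. Without Folfiri 3, it called 31 genes lower, 30 of them at least 2-fold, and 3 higher, 2 of them at least 2-fold because Loxl2 then passed that size, with a median of -1.91.

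The promoters of 6 members are shown because they belong to genes that responded in different ways: Adm had the largest fall, Cited2 rose, Ddit4, Bnip3 and Gbe1 fell strongly and Stc2 was not called. The last 4 were chosen after their values were seen. Plod2, second to Adm among the falls, and Angptl4 and Loxl2, which rose more than Cited2 from lower levels, are not in the promoter table used. Each sequence is the RefSeq window on GRCm38.p6 from 250 bases before to 50 bases after the transcription start, read 5′ to 3′ along the gene. Capitals mark ACGTG or GCGTG, the forms of this core, on either strand (CACGT and CACGC on the other), and ACGTG is also part of the E-box CACGTG. The windows are chr7:110627407-110627706 on the plus strand for Adm, chr10:59951721-59952020 on the minus strand for Ddit4, chr7:138909457-138909756 on the minus strand for Bnip3, chr16:70313699-70313998 on the plus strand for Gbe1, chr11:31370012-31370311 on the minus strand for Stc2 and chr10:17722978-17723277 on the plus strand for Cited2.
Adm: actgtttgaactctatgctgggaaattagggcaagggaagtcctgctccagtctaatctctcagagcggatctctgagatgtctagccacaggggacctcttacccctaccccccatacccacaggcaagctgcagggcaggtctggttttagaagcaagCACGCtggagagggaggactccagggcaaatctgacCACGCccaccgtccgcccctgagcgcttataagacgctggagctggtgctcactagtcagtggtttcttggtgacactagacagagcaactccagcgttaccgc
Ddit4: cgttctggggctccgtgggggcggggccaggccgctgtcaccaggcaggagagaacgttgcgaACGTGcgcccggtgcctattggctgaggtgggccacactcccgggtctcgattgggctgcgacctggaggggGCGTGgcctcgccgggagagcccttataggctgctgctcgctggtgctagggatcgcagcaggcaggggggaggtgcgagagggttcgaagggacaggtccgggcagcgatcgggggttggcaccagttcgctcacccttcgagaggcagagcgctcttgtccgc
Bnip3: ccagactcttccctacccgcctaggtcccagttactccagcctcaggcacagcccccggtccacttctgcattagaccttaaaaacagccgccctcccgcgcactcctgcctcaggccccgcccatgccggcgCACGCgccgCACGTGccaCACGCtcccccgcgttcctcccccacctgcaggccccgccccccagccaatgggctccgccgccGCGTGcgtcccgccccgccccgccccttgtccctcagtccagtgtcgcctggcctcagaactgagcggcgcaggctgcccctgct
Gbe1: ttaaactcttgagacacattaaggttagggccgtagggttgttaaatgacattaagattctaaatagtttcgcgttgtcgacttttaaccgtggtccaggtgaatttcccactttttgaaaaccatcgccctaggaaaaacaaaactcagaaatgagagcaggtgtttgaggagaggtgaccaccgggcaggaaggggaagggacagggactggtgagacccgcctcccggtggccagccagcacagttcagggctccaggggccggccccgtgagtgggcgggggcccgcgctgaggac
Stc2: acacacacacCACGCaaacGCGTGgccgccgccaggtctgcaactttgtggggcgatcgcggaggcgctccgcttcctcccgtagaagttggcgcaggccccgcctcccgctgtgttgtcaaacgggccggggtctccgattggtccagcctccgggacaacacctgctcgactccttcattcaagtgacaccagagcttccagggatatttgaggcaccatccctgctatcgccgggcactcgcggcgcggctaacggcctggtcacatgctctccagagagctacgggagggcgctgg
Cited2: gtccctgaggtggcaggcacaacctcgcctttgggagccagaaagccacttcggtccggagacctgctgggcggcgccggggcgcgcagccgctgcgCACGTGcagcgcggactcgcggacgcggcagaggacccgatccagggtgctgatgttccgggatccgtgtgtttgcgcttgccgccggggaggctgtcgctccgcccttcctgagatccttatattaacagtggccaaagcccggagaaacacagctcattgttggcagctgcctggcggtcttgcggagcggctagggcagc

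Bnip3 held 5 matches in this window, Adm, Ddit4, Stc2 and Cited2 held 2 each, and Gbe1 held 0. The 2 matches of Cited2 overlap in a single CACGTG, and those of Stc2 lie 240 and 231 bases before the start, far from those of Adm at 90 and 54. Matches thus stood in the windows of genes that fell, of one that rose and of one that was not called. Over the 30 members in the table, which have 44 windows because some genes have several starts, 72.7% of windows held a match, compared with 60.7% over all tested genes and 43.8% over all promoters in the table. At least 2 matches stood in 59.1%, 32.7% and 20.6% of these windows. The members' windows were also richer in GC, with a median of 64.3% compared with 60.3% and 52.7%, and in CpG, with a median of 25 per window compared with 20 and 7. The part of base composition in the motif shares was not tested. A match is a string of letters and not evidence of HIF binding, and binding was not measured here.

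Among genes for blood vessels and secreted signals, 4 of 6 fell, 1 rose and 1 was not called. Vegfa (chr17:46016993-46032369, GRCm38), the chief growth factor for blood vessels, was at 857, 1113 and 1154 CPM in controls 1 to 3 and at 84.9, 70.3 and 69.6 CPM in Folfiri cultures 1 to 3. This was 13.9-fold lower (log2 fold change -3.80, SE 0.14, adjusted p = 6.21e-09). Adm (chr7:110627661-110629820), which encodes the vasodilator peptide adrenomedullin, was at 137, 230 and 242 CPM in control and at 4.09, 3.26 and 3.82 CPM after Folfiri. It was 54.6-fold lower (log2 fold change -5.77, SE 0.23, adjusted p = 9.35e-09), and 2 of the 14692 genes tested had a larger fall. Control 1 was well below the other controls, yet far above every Folfiri culture.

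Efna1 and Efna3 encode ephrin ligands bound to the cell membrane, which signal through Eph receptors on neighboring cells. Efna1 was at 88.7, 134 and 128 CPM in control and 36.8, 38.2 and 38.4 CPM after Folfiri (log2 fold change -1.63, SE 0.14, adjusted p = 1.25e-06). Efna3 was at 35.5, 54.0 and 53.9 CPM in control and 20.6, 18.6 and 18.7 CPM after Folfiri (log2 fold change -1.31, SE 0.15, adjusted p = 1.28e-05). Both kept clear of overlap, although control 1 was again the lowest control. Angptl4 (chr17:33773750-33781830), a secreted inhibitor of lipoprotein lipase that is also a target of the PPAR receptors, went the other way. It was at 1.19, 0.92 and 0.617 CPM in control and 8.85, 10.6 and 11.4 CPM after Folfiri, an 11.3-fold gain (log2 fold change 3.46, SE 0.21, adjusted p = 1.2e-07). Its level stayed low, and its control values rest on 33, 23 and 12 counts. Stc2, a secreted glycoprotein, was at 77.5, 64.4 and 61.8 CPM in control and 69.4, 66.1 and 65.8 CPM after Folfiri, overlapping groups with a log2 fold change of -0.02 (95% confidence interval -0.22 to 0.18, adjusted p = 0.865).

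**Figure D2:**
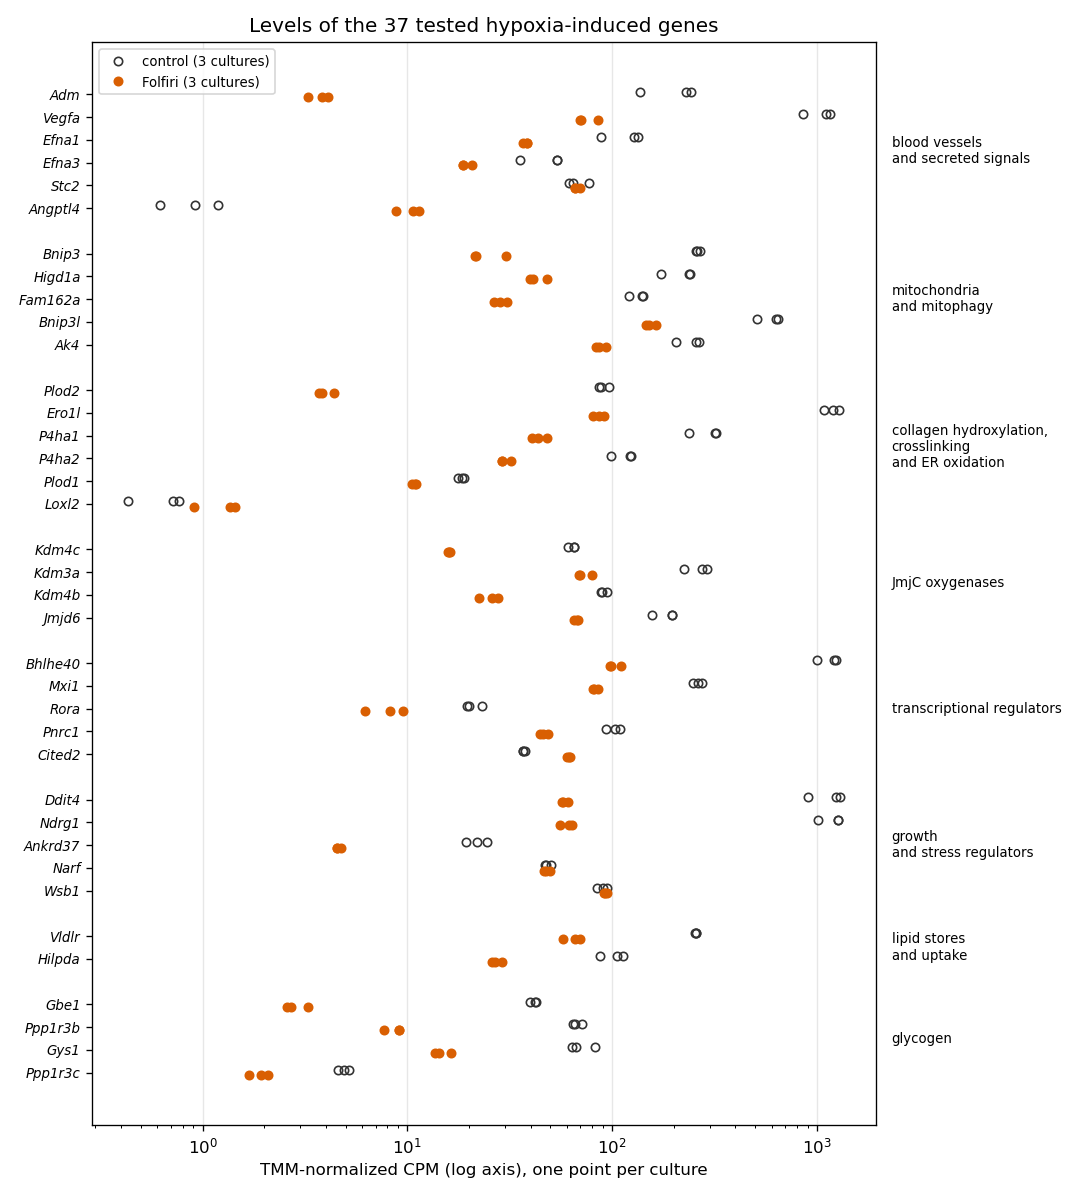
CPM of the hypoxia genes in each of the 3 control and 3 Folfiri cultures on a log axis, grouped by role; points are single cultures. Folfiri cultures lie below the controls in most genes, above them in Angptl4, Loxl2 and Cited2, and among them in Stc2, Wsb1 and Narf.

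All 5 genes for mitochondria and mitophagy fell, each at least 2-fold. Bnip3 (chr7:138890836-138909519) and Bnip3l encode related receptors in the outer mitochondrial membrane that tether mitochondria to the autophagy machinery. Bnip3 was at 259, 258 and 270 CPM in control and 30.4, 21.4 and 21.7 CPM after Folfiri, 10.7-fold lower (log2 fold change -3.42, SE 0.13, adjusted p = 6.94e-09). Bnip3l was at 512, 629 and 642 CPM in control and 164, 151 and 147 CPM after Folfiri, 3.86-fold lower (log2 fold change -1.95, SE 0.10, adjusted p = 4.85e-08). The value of Bnip3l is uncertain, because reads could be shared with its pseudogene Bnip3l-ps on chromosome 12, which was given 188 CPM in control and 55.1 CPM after Folfiri.

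Higd1a, which helps assemble the respiratory chain, was at 173, 237 and 241 CPM in control and 41.1, 39.6 and 48.1 CPM after Folfiri (log2 fold change -2.34, SE 0.13, adjusted p = 8.73e-08). Fam162a, a mitochondrial protein linked to hypoxic cell death, was at 121, 140 and 142 CPM in control and 30.6, 26.4 and 28.4 CPM after Folfiri (log2 fold change -2.24, SE 0.09, adjusted p = 1.08e-08). Ak4, an adenylate kinase of the mitochondrial matrix, was at 205, 256 and 267 CPM in control and 93.1, 86.5 and 83.7 CPM after Folfiri (log2 fold change -1.47, SE 0.10, adjusted p = 3.29e-07). Bnip3 had the largest fall of this role and Ak4 the smallest. The groups did not overlap in any of the 5, nor in 81.4% of all genes tested. Fam162a overlaps Wdr5b on the opposite strand over 19.8% of its exonic bases, and its 12294 counts over the 6 cultures, against 279 for Wdr5b, could include reads of that gene.

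Of the genes for collagen and disulfide formation, 5 of the 6 tested fell and Loxl2 rose. Ero1l (chr14:45283087-45318771), the oxidase that passes electrons from protein disulfide isomerase to oxygen in the endoplasmic reticulum, was among the most abundant members. It was at 1081, 1202 and 1278 CPM in control and 91.1, 86.3 and 80.9 CPM after Folfiri, 13.8-fold lower (log2 fold change -3.79, SE 0.10, adjusted p = 1.61e-09). P4ha1 and P4ha2 encode the catalytic subunits of collagen prolyl hydroxylase. P4ha1 was at 238, 318 and 320 CPM in control and 48.2, 43.4 and 40.8 CPM after Folfiri (log2 fold change -2.73, SE 0.12, adjusted p = 2.05e-08). P4ha2 was at 98.2, 122 and 124 CPM in control and 32.0, 29.0 and 28.9 CPM after Folfiri (log2 fold change -1.94, SE 0.10, adjusted p = 5.21e-08).

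Plod1 and Plod2 encode lysyl hydroxylases, of which the Plod2 enzyme acts on collagen telopeptides, the ends that carry crosslinks. Plod2 (chr9:92542223-92608428) was at 85.9, 88.1 and 96.8 CPM in control and 4.39, 3.71 and 3.82 CPM after Folfiri, 22.7-fold lower (log2 fold change -4.50, SE 0.10, adjusted p = 1.24e-09). Plod1 moved much less, from 18.3 ± 0.662 to 10.8 ± 0.301 CPM (SD, n = 3; log2 fold change -0.76, SE 0.09, adjusted p = 2.02e-05), and it was the 1 lower gene of the 31 with less than a 2-fold change. The lysyl oxidases, which start collagen crosslinks outside the cell, were barely measured. Lox was not tested, with 0 counts in every control and 0, 1 and 1 counts in the Folfiri cultures, too few for a difference to be detectable at this depth. Loxl2 was at 0.432, 0.72 and 0.771 CPM in control and 1.44, 1.36 and 0.91 CPM after Folfiri (log2 fold change 0.97, SE 0.29, adjusted p = 0.0103). Its rise rests on 12 to 18 counts per control and 30 to 43 counts per Folfiri culture.

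All 4 JmjC oxygenases, dioxygenases that need oxygen, iron and 2-oxoglutarate, fell by similar amounts. Kdm3a, a demethylase of histone H3 lysine 9, was at 224, 274 and 289 CPM in control and 79.3, 68.6 and 69.7 CPM after Folfiri (log2 fold change -1.86, SE 0.11, adjusted p = 8.95e-08). Kdm4b and Kdm4c, which remove trimethyl marks from the same lysine, had the tightest controls of this role. Kdm4b was at 87.8, 94.5 and 89.6 CPM in control and 27.8, 22.5 and 25.9 CPM after Folfiri (log2 fold change -1.83, SE 0.09, adjusted p = 3.81e-08). Kdm4c was at 65.3, 61.2 and 64.8 CPM in control and 16.0, 15.8 and 16.2 CPM after Folfiri (log2 fold change -1.99, SE 0.08, adjusted p = 7.12e-09). Jmjd6, a lysyl hydroxylase of splicing proteins, was at 156, 196 and 197 CPM in control and 67.6, 65.2 and 67.8 CPM after Folfiri (log2 fold change -1.45, SE 0.09, adjusted p = 2.23e-07). Jmjd6 shares 172 bases with Mettl23 on the opposite strand, which had 2269 counts against 19335 for Jmjd6, so that its value is uncertain to that extent. The 4 log2 fold changes span -1.99 to -1.45, the narrowest range of a role with more than 2 members.

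Of the transcriptional regulators, 4 of the 5 tested fell and Cited2 rose. Bhlhe40 (chr6:108660629-108666925), a repressor that binds E-boxes and tunes the circadian clock, was at 995, 1245 and 1215 CPM in control and 110, 97.7 and 98.2 CPM after Folfiri, 11.3-fold lower (log2 fold change -3.50, SE 0.11, adjusted p = 3.17e-09). Its opposite-strand neighbor 0610040F04Rik, with 1972 counts against 91957, shares 118 bases with it, and reads there cannot be told apart. The paralog Bhlhe41 was nearly silent, with 11, 6 and 4 counts in controls 1 to 3 and 1, 0 and 0 in the Folfiri cultures, and was not tested. Mxi1, an antagonist of MYC, was at 249, 264 and 274 CPM in control and 85.2, 81.1 and 80.6 CPM after Folfiri (log2 fold change -1.67, SE 0.07, adjusted p = 1.36e-08). Pnrc1, a coregulator of nuclear receptors, was at 93.8, 103 and 109 CPM in control and 48.6, 46.0 and 44.4 CPM after Folfiri (log2 fold change -1.14, SE 0.08, adjusted p = 3.64e-07).

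Rora, a nuclear receptor of the circadian clock, was at 23.1, 19.6 and 20.1 CPM in control and 9.52, 8.23 and 6.22 CPM after Folfiri (log2 fold change -1.39, SE 0.15, adjusted p = 7.75e-06). It spans 734 kb, the longest member, and the median log2 fold change of the 2938 tested genes of 60.3 kb or more was -0.23. With a trend over genomic span as an offset, its log2 fold change was -0.50 (adjusted p = 0.00911 in the same test). Cited2 (chr10:17723218-17725674), itself a hypoxia-induced gene whose protein competes with HIF for the coactivators CBP and p300, was at 37.6, 36.6 and 36.6 CPM in control and 60.4, 61.6 and 62.0 CPM after Folfiri (log2 fold change 0.73, SE 0.07, adjusted p = 3.29e-06). Both of its groups were tight, and Cited2 was the 1 member above 10 CPM on average that rose.

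Growth and stress regulators held some of the largest falls beside genes that were not called. Ddit4 (chr10:59949669-59951834), also known as REDD1, an inhibitor of the growth kinase complex mTORC1, was at 906, 1242 and 1302 CPM in control and 61.2, 57.0 and 57.6 CPM after Folfiri. Ndrg1 (chr15:66929318-66969640), a differentiation and stress gene, was at 1009, 1264 and 1269 CPM in control and 63.7, 55.6 and 61.8 CPM after Folfiri. Both were 19.6-fold lower, with log2 fold changes of -4.30 for Ddit4 (SE 0.14, adjusted p = 3.95e-09) and -4.29 for Ndrg1 (SE 0.12, adjusted p = 1.61e-09). Ankrd37, an ankyrin repeat protein, was at 19.3, 21.8 and 24.4 CPM in control and 4.73, 4.55 and 4.55 CPM after Folfiri (log2 fold change -2.24, SE 0.12, adjusted p = 5.61e-08), and reads of Ufsp2 and Lrp2bp, which overlap it on the opposite strand, cannot be told apart from its own. Ufsp2 had 10728 counts over the 6 cultures and Lrp2bp 62, against 1987 for Ankrd37.

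Wsb1 and Narf were not called, and their groups overlapped. Wsb1, a substrate receptor of a ubiquitin ligase, was at 84.5, 90.7 and 94.0 CPM in control and 91.4, 94.1 and 92.6 CPM after Folfiri, a log2 fold change of 0.05 (95% confidence interval -0.11 to 0.20, adjusted p = 0.539). Narf, a protein of the nuclear lamina, was at 47.2, 50.3 and 47.4 CPM in control and 49.8, 47.8 and 46.3 CPM after Folfiri, a log2 fold change of -0.01 (95% confidence interval -0.17 to 0.15, adjusted p = 0.904). Together with Stc2, these intervals leave out a 2-fold change in either direction. The sign of these small values depended on the scaling and on the correction for genomic span, as the values in the closing section show.

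Both lipid genes and all 4 glycogen genes fell. Hilpda, a small protein of lipid droplets that inhibits the lipase ATGL, was at 87.6, 113 and 106 CPM in control and 26.8, 25.9 and 29.0 CPM after Folfiri (log2 fold change -1.91, SE 0.10, adjusted p = 6.47e-08). Vldlr, a receptor that takes up lipoproteins, was at 258, 254 and 256 CPM in control and 69.5, 65.5 and 57.6 CPM after Folfiri, 3.99-fold lower (SE 0.08 on the log2 scale, adjusted p = 1.14e-08). Both lipid genes thus fell about as far as the median member.

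Gbe1 (chr16:70313949-70569716), the branching enzyme of glycogen synthesis, had the largest fall of the glycogen genes. It was at 39.6, 42.2 and 42.6 CPM in control and 3.29, 2.71 and 2.58 CPM after Folfiri, 14.5-fold lower (log2 fold change -3.86, SE 0.11, adjusted p = 2.18e-09). Gys1, the glycogen synthase of most tissues, was at 82.8, 66.5 and 63.5 CPM in control and 16.4, 13.7 and 14.3 CPM after Folfiri (log2 fold change -2.26, SE 0.12, adjusted p = 5.14e-08). Here control 1 was the highest control, and part of Gys1 overlaps Ruvbl2 on the opposite strand, so that its 6585 counts over the 6 cultures are uncertain beside 18641 for Ruvbl2. Ppp1r3b and Ppp1r3c encode subunits that bring protein phosphatase 1 to glycogen, where it activates the synthase. Ppp1r3b was at 71.0, 65.9 and 64.3 CPM in control and 9.09, 9.13 and 7.68 CPM after Folfiri (log2 fold change -2.96, SE 0.10, adjusted p = 3.37e-09). Ppp1r3c was scarce, at 4.90 ± 0.297 CPM in control and 1.91 ± 0.21 CPM after Folfiri (SD, n = 3; log2 fold change -1.36, SE 0.15, adjusted p = 1.22e-05).

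The balance between related genes was compared in 6 pairs. Within each culture, the log2 ratio of Plod2 to Plod1 was 2.22, 2.22 and 2.46 in control and -1.32, -1.49 and -1.53 after Folfiri, so that in these counts, not corrected for length, the order of the pair turned over (change -3.74). The log2 ratio of Bnip3 to Bnip3l went from -1.17 ± 0.17 to -2.67 ± 0.21 (SD, n = 3; change -1.50), with the limit on Bnip3l given above. That of Ppp1r3b to Ppp1r3c went from 3.78 ± 0.13 to 2.18 ± 0.29 (change -1.60), that of P4ha1 to P4ha2 from 1.34 ± 0.06 to 0.56 ± 0.05 (change -0.79), and that of Efna1 to Efna3 from 1.29 ± 0.04 to 0.97 ± 0.12 (change -0.32). In these 5 pairs the groups did not overlap, with a 2-sided exact permutation p of 0.1, the smallest that 3 against 3 can give, and 0.12 adjusted over the 6 pairs compared, so that no pair could pass 0.05. The groups of 81.4% of all single genes tested did not overlap either, and the share over other pairs of genes was not computed. The log2 ratio of Kdm4b to Kdm4c overlapped between groups, at 0.51 ± 0.11 and 0.66 ± 0.14 (change 0.15, exact permutation p = 0.2). In each of the 5 pairs with separate groups, the first-named gene, which was the more abundant in control except for Bnip3, had the larger fall.

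**Figure D3:**
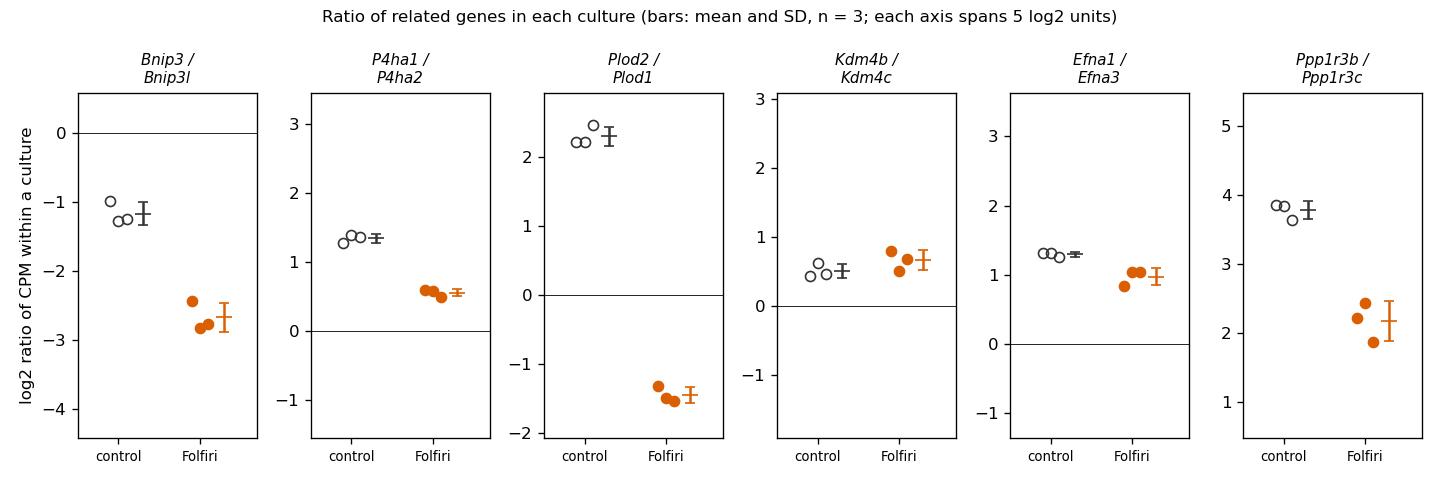
Log2 ratio of CPM between related hypoxia genes within each culture, for 3 control and 3 Folfiri cultures; points are single cultures and bars are the mean and SD (n = 3). The mean ratio of Plod2 to Plod1 went from 2.30 to -1.45, while that of Kdm4b to Kdm4c overlapped between groups.

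Levels can be compared between genes per kilobase of exon. In control, Ddit4 was highest at 655 CPM per kb, followed by Bhlhe40 at 245, Vegfa at 243, Ero1l at 225 and Ndrg1 at 179 CPM per kb. The values of Bhlhe40 and Vegfa were closer to each other than the SD of either over the control cultures. After Folfiri the order changed: Bnip3l was highest at 39.9 CPM per kb, with Fam162a at 33.5 and Ddit4 at 33.4 CPM per kb next to it, and Adm went from the eighth of the 37 tested genes at 126 CPM per kb to the thirtieth at 2.3 CPM per kb. Among the 9 members above 100 CPM per kb in control, all 9 were lower, with a median log2 fold change of -3.79. Of the 22 between 10 and 100 CPM per kb, 18 were lower and 1 was higher (median -1.85), and of the 6 under 10 CPM per kb, 4 were lower and 2 were higher (median -1.06). This is a description only, because the level and the fold change share the control values.

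**Figure D4:**
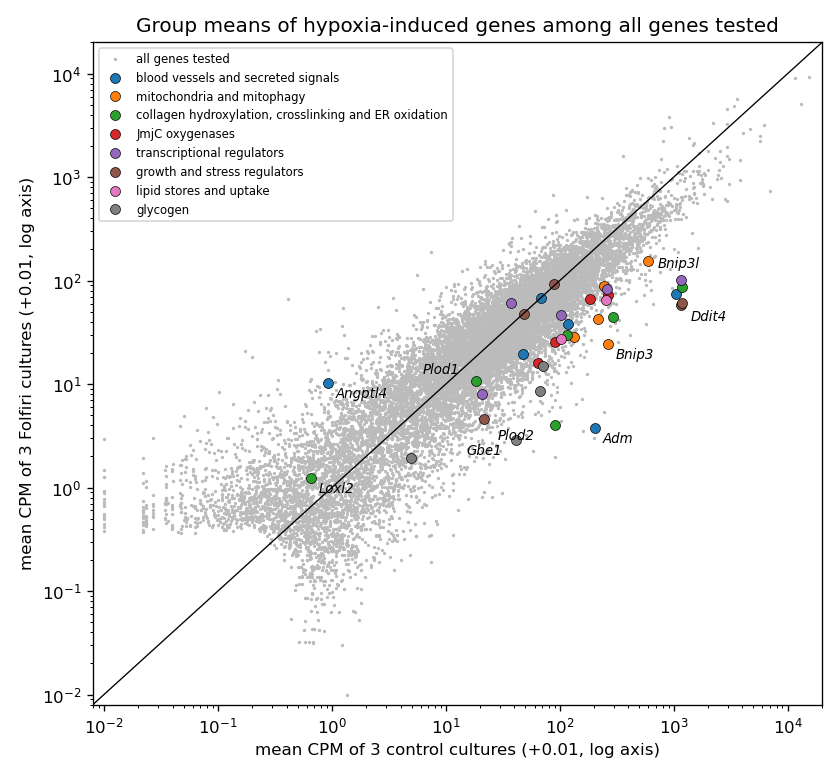
Mean CPM of the 3 control cultures against that of the 3 Folfiri cultures on log axes, with 0.01 added, for the 37 tested hypoxia genes (colored by role) over all 14692 genes tested (gray); the line marks equal levels. Adm, Plod2 and Gbe1 lie far below the line, and Angptl4 lies above it.

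The genes that sense oxygen and carry the HIF signal moved in both directions. Of 12 listed, 11 were tested, 7 were lower, 3 were higher and 1 was not called. Calls in both directions were common, at 38.8% lower and 40.3% higher over all genes tested. The median log2 fold change of the 11 was -0.66, or -0.38 with total counts only and -0.90 with the span offset. Of the alpha subunits, Hif1a fell from 366 ± 6.55 to 258 ± 19.5 CPM (SD, n = 3; log2 fold change -0.51, adjusted p = 0.000119). In the same test, its log2 fold change was -0.23 with total counts only (adjusted p = 0.0166) and -0.65 with the genomic span offset (adjusted p = 2.1e-05). Epas1, which encodes HIF-2 alpha, fell from 220 ± 12.8 to 104 ± 12.2 CPM (log2 fold change -1.08, adjusted p = 1.61e-06). Hif3a, itself a HIF target, fell from 57.7 ± 3.9 to 2.23 ± 0.393 CPM (log2 fold change -4.69, adjusted p = 1.61e-09). The partner of the alpha subunits, Arnt, fell (log2 fold change -1.29, adjusted p = 3.91e-07), while Arnt2 was too low to be tested. Among the prolyl hydroxylases, the hypoxia-induced Egln3 fell from 659 ± 43 to 59.2 ± 5.26 CPM (log2 fold change -3.48, adjusted p = 1.61e-09) and Egln1 from 377 ± 15.8 to 102 ± 4.89 CPM (log2 fold change -1.89, adjusted p = 8.89e-09). Egln2 was not called (log2 fold change -0.16, adjusted p = 0.0848), but was lower without control 1 (log2 fold change -0.21, adjusted p = 0.0132) and with the genomic span offset (log2 fold change -0.42, adjusted p = 0.00059).

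Vhl, which targets HIF alpha for degradation, fell (log2 fold change -0.66, adjusted p = 1.75e-05), and Hif1an, the asparaginyl hydroxylase that blocks HIF's contact with its coactivators, rose (log2 fold change 0.51, adjusted p = 4.76e-05). In the same test, the log2 fold change of Hif1an was 0.17 with the genomic span offset (adjusted p = 0.044) and 0.78 with total counts only (adjusted p = 1.7e-05). The coactivator genes Crebbp (log2 fold change 0.92, adjusted p = 0.00131) and Ep300 (log2 fold change 0.53, adjusted p = 0.00132) rose as well, although Crebbp was at 73.7, 70.5 and 39.1 CPM in Folfiri cultures 1 to 3, the last of them close to the controls at 34.7, 30.6 and 31.7 CPM. Transcripts do not measure the HIF protein, whose level is set mainly by its degradation.

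Glycolytic and acid-export genes, the other arm of the hypoxia response, fell alongside. Over all genes tested, 38.8% were called lower, 16.8% at least 2-fold lower, and 40.3% higher. Of the 23 genes on this list, 22 were tested, 20 were lower, 17 of them at least 2-fold, and 1, Eno2, was higher (median log2 fold change -1.81). With total counts only, 19 were lower and 2 were higher, since Hk2 was no longer called (log2 fold change -0.28, adjusted p = 0.141, in place of -0.55, adjusted p = 0.00284) and Pfkfb4 was called higher (log2 fold change 0.36, adjusted p = 0.0145). Aldoc, an aldolase, went from 571 ± 95.5 to 38.2 ± 4.63 CPM (SD, n = 3; log2 fold change -3.90, adjusted p = 6.22e-09). Pdk1, the kinase that shuts off pyruvate dehydrogenase, went from 283 ± 19.7 to 22.7 ± 1.9 CPM (log2 fold change -3.64, adjusted p = 1.24e-09). Slc2a1, the glucose transporter GLUT1, went from 622 ± 73.3 to 98.2 ± 6.12 CPM (log2 fold change -2.66, adjusted p = 7.64e-09). The median of this list was thus near that of the 37 genes outside glycolysis, and the difference between the lists was not tested.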

How the data were processed

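RNA of 3 control and 3 Folfiri-treated MTO54 organoid cultures was sequenced with a kit that does not mark strand. The authors aligned the reads with STAR (version 2.5.2 per the submitters' processing notes), sorted them with Sambamba, counted reads per gene of GENCODE vM25 with Rsubread and deposited the raw counts. How reads with several positions were counted is not given in the sources used here, so members whose exons overlap another gene with more than 50 reads in all, or that have a pseudogene, are marked as uncertain.

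Samples were grouped by their labels. The counts were filtered with filterByExpr, scaled by TMM and tested by quasi-likelihood in edgeR 4.0.16 (R 4.3.3). P-values of the 14692 genes kept were adjusted by the method of Benjamini and Hochberg, with a threshold of 0.05. A stricter call also needed a log2 fold change of at least 1 in size. Standard errors were taken from the fold change and its F statistic. Paralog ratios were tested by 2-sided exact permutation. Symbols, coordinates, exonic lengths and spans came from GENCODE vM21 on GRCm38, which held 24168 of the 24190 listed genes, and promoters came from RefSeq. The procedure was run on simulated counts in which a small share of genes changed, evenly in both directions. That run did not probe the scaling in data where most genes change. Counts of 22103591 to 30098210 per culture set the precision, and counting error is the only error they describe.

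The members and the lists (HIF pathway, glycolysis and acid export, integrated stress response, PPAR targets and markers of epithelium, fibroblasts, endothelium and immune cells) were chosen with earlier results of these data known. All 39 members were named by role, with values in every culture for those past the threshold that changed 2-fold or more and averaged 10 CPM or more, and for any that alone moved in its direction in its role. Members not called are also given in every culture, and the others by group means or counts. All genes of the HIF pathway list were named, and from the glycolysis, stress and PPAR lists up to 3 per direction past the threshold, taken by size of change among those averaging 10 CPM or more. An item that this rule covers is not reported here. Promoters were to be printed for the members in the RefSeq table with the largest change in each direction, past the threshold and averaging 10 CPM or more. Alternatives were DESeq2 1.42.0 size factors and Wald test, total counts only, upper quartile scaling, no filter, a mean of at least 1 CPM, the replicate number as a block, each culture left out in turn and a loess trend over genomic span (span 0.3) as an offset.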

Additional observations from a re-analysis of the deposited data

How the results depend on the processing

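Under the alternatives run, 31 to 34 hypoxia genes were lower and their median log2 fold change stayed negative, and the difference from the median of all genes tested stayed between -2.02 and -1.89. Scaling to total counts only moved the median of all genes to 0.30, the share of higher genes among all calls from 51% to 63.3%, and the median of the hypoxia genes to -1.65. It also gave 5 higher genes, 3 of them at least 2-fold, with Narf at 0.27 (adjusted p = 0.00955) in place of -0.01 and Wsb1 called higher at 0.33 (edgeR, adjusted p = 0.00078). The count of genes at least 2-fold higher was 2 with upper quartile scaling and 2 with the genomic span offset, and lay between 1 and 2 with 1 culture left out. It was 2 without control 2, without control 3 or without Folfiri 3, because Loxl2, whose log2 fold change was 0.97, then passed 1. The span offset gave 34 lower genes, adding Wsb1 at -0.29 (adjusted p = 0.00269) in place of 0.05, Stc2 at -0.36 (adjusted p = 0.00408) and Narf at -0.33 (adjusted p = 0.00164). DESeq2's Wald test and edgeR with no filter each called 32 genes lower, Bhlhe41 being the addition, and Loxl2 was not tested at a mean of at least 1 CPM. Replicate numbers were shared between the groups, but same-numbered cultures did not deviate together (correlations of 0.03, -0.12 and 0.04, and not every culture correlated best with its own number), so they were not treated as pairs. With the replicate block, 31 hypoxia genes were lower and 3 higher, with a median of -1.93, and 11499 of all genes were called in place of 11623. Depth limits what can be said of Lox and Bhlhe41, and counting error bears most on Loxl2 and on the controls of Angptl4.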

Other observations

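Genes of the integrated stress response, which share several targets with hypoxia, did not move as one. Of 11 tested, 8 were lower and 3 were higher after Folfiri, compared with 38.8% and 40.3% of all genes tested. The median log2 fold change of the 11 was -0.77 (edgeR). The 8 became 6 and the median -0.50 with total counts only, which lost Asns (adjusted p = 0.17) and Slc7a11 (adjusted p = 0.994). Slc7a11, at -0.27, was also not called without control 1 (adjusted p = 0.127), without Folfiri 1 (adjusted p = 0.0694), without Folfiri 3 (adjusted p = 0.177), with upper quartile scaling (adjusted p = 0.109) or at a mean of at least 1 CPM (adjusted p = 0.059), and was higher with the genomic span offset (log2 fold change 0.51, adjusted p = 0.00166). Trib3, a pseudokinase that restrains AKT, went from 22.3 ± 6.21 to 5.27 ± 0.652 CPM (SD, n = 3; log2 fold change -2.09, adjusted p = 2.3e-06). The stress-induced transcription factors Atf3 (log2 fold change -1.75, adjusted p = 7.81e-08) and Ddit3 (log2 fold change -1.13, adjusted p = 9.1e-06) also fell. Their upstream activator Atf4 was slightly higher, at 318 ± 22 CPM against 265 ± 8.26 CPM (log2 fold change 0.26, adjusted p = 0.00804). Ppp1r15a, whose product helps remove the phosphate from eIF2 alpha, went from 42.4 ± 4.9 to 84.5 ± 4.16 CPM (1.99-fold higher, adjusted p = 3.06e-06), and Phgdh, the first enzyme of serine synthesis, rose as well (log2 fold change 0.65, adjusted p = 2.22e-05).

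Angptl4 is known as a target of PPAR receptors as well as of HIF. Of 8 PPAR target genes, 6 were tested, 1 was higher, 2 were lower and 3 were not called. Over all genes tested, 40.3% were called higher and 38.8% lower. The median log2 fold change of the 6 was -0.24, or 0.03 with total counts only and -0.13 without control 1. The span offset called 4 of the 6 lower, with a median of -0.41. The higher one was Plin2, which coats lipid droplets, at 23.3 ± 1.5 CPM in control and 61.8 ± 3.07 CPM after Folfiri (log2 fold change 1.41, adjusted p = 1.12e-07). Acadm, an enzyme of mitochondrial fatty acid oxidation, was lower (log2 fold change -0.96, adjusted p = 9.98e-07). The rise of Angptl4 thus stood beside that of Plin2, while the lipid droplet gene Hilpda fell.

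Of the marker genes of other cell types, Dcn and Pdgfra rose at levels at or below 1.34 CPM, as did Ptprc and Adgre1 at or below 1.13 CPM. Other fibroblast and endothelial markers fell: Col1a1 went from 0.842 ± 0.216 to 0.301 ± 0.0637 CPM (log2 fold change -1.47, adjusted p = 0.00149) and Vwf from 7.97 ± 0.603 to 3.65 ± 0.787 CPM (log2 fold change -1.13, adjusted p = 7.61e-05). Of the 9 epithelial markers, 5 were lower, 1 was higher (Cdh1, log2 fold change 0.21, adjusted p = 0.035) and 3 were not called (Krt18, Krt20 and Vil1), with a median log2 fold change of -0.27. Of all genes tested, 38.8% were called lower and 40.3% higher. The call of Cdh1 was lost without control 2, control 3, Folfiri 1 or Folfiri 2, with no filter, with the replicate block and with the span offset (adjusted p from 0.0624 to 0.15), and that of Krt8 without control 2, Folfiri 1 or Folfiri 2 and with total counts only (adjusted p from 0.0584 to 0.95). Krt18 was called lower without control 1 (adjusted p = 0.00146) and with the span offset (adjusted p = 0.0334), as was Vil1 with the span offset (adjusted p = 0.000733), and the median of the list was 0.00 with total counts only and -0.52 with the span offset. The largest of these changes was in Cdx2, an intestinal transcription factor, which went from 157 ± 6.88 to 54.5 ± 0.753 CPM (log2 fold change -1.53, adjusted p = 1.83e-08). The part of cell makeup in the results on hypoxia genes was not tested.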
